A study of Homo sapiens with 12 samples.

Results

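RNA sequencing libraries of MDA-MB-231 wells given SH4-54 alone were compared with libraries of wells given no drug. MDA-MB-231 is an established line of human breast cancer cells that lack oestrogen and progesterone receptors and HER2 amplification and look mesenchymal. The comparison used the 6 libraries that the sample titles place in these groups, 3 wells each, of 12 in the series, and covered all genes of the count table. SH4-54, a small molecule made to bind STAT3 and STAT5, was given at 8 µM for 24 h without any glucocorticoid, and the control wells were left untreated over the same time. The sources used here give no vehicle for the untreated wells. The other 6 libraries, 3 wells with 1 µM dexamethasone (DEX) and 3 wells with DEX and 8 µM SH4-54, also for 24 h, entered the shared statistical fit and serve below as a separate pair of groups in which the compound was added. All wells are of 1 cell line, and nothing in the labels says that they came from separate cultures, so p-values measure the spread between these wells.

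STAT3 and STAT5 are transcription factors that are phosphorylated after cytokine receptors such as the IL-6 receptor engage Janus kinases, and then bind DNA as dimers and switch on genes such as SOCS3 and BCL3. Compounds of this class bind the SH2 domain through which the factors dimerise, so they act on the protein and not directly on its transcript. Several other stress pathways are read in transcripts of the same cells: HSF1 switches on heat shock genes through heat shock elements, NRF2 switches on antioxidant genes through antioxidant response elements, AP-1 is built from FOS and JUN proteins, and SREBP2 drives cholesterol synthesis genes.

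The promoters of 4 genes that rose are shown first, chosen because each holds a match to an element named above: HSPA6, a heat shock gene, to the heat shock element, MMP10, a protease gene, to the AP-1 element, and TXNRD1 and GCLM, antioxidant genes, to the antioxidant response element. Each line is the 250 bases before the annotated start, 5′ to 3′ on the gene's strand, from RefSeq on GRCh38.p14, and the capitals mark that element only. The windows are HSPA6 at chr1:161524290-161524539 (plus strand), MMP10 at chr11:102780629-102780878 (minus strand), TXNRD1 at chr12:104286782-104287031 (plus strand) and GCLM at chr1:93909431-93909680 (minus strand).
HSPA6 promoter, heat shock element: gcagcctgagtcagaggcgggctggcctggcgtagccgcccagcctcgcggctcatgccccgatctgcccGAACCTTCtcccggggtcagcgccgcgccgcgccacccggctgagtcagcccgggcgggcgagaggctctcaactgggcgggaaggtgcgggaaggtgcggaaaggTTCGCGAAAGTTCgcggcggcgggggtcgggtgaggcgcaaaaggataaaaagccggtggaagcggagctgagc
MMP10 promoter, AP-1 element: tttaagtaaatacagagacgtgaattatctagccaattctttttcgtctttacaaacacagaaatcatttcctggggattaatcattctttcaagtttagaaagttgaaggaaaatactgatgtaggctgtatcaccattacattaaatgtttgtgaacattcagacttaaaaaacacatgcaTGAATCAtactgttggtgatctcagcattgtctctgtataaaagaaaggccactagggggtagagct
TXNRD1 promoter, antioxidant response element: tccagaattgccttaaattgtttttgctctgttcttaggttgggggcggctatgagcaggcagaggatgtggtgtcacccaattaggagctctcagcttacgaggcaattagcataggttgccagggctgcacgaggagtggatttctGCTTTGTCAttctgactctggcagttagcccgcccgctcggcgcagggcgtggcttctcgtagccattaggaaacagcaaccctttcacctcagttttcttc
GCLM promoter, antioxidant response element: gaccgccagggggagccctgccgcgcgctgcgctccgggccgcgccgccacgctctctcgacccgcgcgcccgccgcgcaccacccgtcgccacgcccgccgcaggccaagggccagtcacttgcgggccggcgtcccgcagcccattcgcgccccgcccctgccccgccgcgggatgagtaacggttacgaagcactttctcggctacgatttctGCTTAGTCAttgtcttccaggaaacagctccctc

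The search took the heat shock element as GAANNTTC or TTCNNGAA, the antioxidant response element as TGACNNNGC, the AP-1 element as TGANTCA, the STAT element as TTCNNNGAA and the sterol element as TCACNCCAC, each on both strands. An antioxidant response element can overlap an AP-1 element, as it does in the windows of MT2A and LBR. HSPA6 has heat shock elements that begin at -180, -74 and -69 from the start, of which the last pair overlap. The antioxidant element begins at -102 in TXNRD1 and at -34 in GCLM, both read on the opposite strand, and the AP-1 element of MMP10 begins at -67. Matches left in lower case are a heat shock element at -95 in MMP10, an antioxidant element at -141 and AP-1 elements at -244 and -139 in HSPA6, and a STAT element at -20 in GCLM. Of the 8 antioxidant genes called below 5 had a window, and those of NQO1, SQSTM1 and UGDH held no antioxidant element. RefSeq windows of 300 bases (250 before and 50 after the start) were matched for 58 of the 85 genes called below, 1 of them by an older symbol. Of the 26 windows of genes that rose, 6 held an antioxidant element (23.1%, against 13.4% of all 27305 windows), 5 an AP-1 element (19.2% against 7.98%), 4 a heat shock element (15.4% against 13.8%), 4 a STAT element (15.4% against 7.95%) and 0 a sterol element (1.16% of all windows). Of the 32 windows of genes that fell, 5 held a heat shock element, 3 an antioxidant element, and 1 each an AP-1, a STAT and a sterol element. These are matches of letters in short windows, given as a description.

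Library depth was similar in both groups. The no-drug libraries held 28439725 to 31552360 counted reads and the SH4-54 libraries 25577213 to 28864061, within the series' range of 25577213 to 35758236. MDA-MB-231 markers were present, with VIM at 1284 to 1365 CPM (counted reads scaled to a common library size) without drug and 1251 to 1275 CPM with SH4-54. ESR1, which the line lacks, had 0 to 4 reads per library in both groups, and HBB and CDH5 had none. The summed level of 18 markers of blood, endothelial, muscle, fat and liver cells was 43.7 to 46.6 CPM without drug and 48.9 to 49.8 CPM with SH4-54, of which CD68 alone gave 40.9 to 43.2 and 45.7 to 46.6 CPM. Of these markers 4 had enough reads to be tested and 0 were called, and their part in the results was not tested. In a principal component analysis of the 6 libraries the first component held 28.4% of the variance and had the no-drug wells at -11.1, -11.8 and -12.3 and the SH4-54 wells at 18, 9.92 and 7.33.

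Few genes were called with SH4-54 alone, and most of these changed by little. Of 14184 genes tested, 85 were called, which is 0.599%, with 38 higher (0.268%) and 47 lower (0.331%) in the SH4-54 wells. A call here means an adjusted p below 0.05 in edgeR's quasi-likelihood test with Benjamini-Hochberg adjustment over all tested genes. The unadjusted p of that test was below 0.05 for 1862 genes (13.1%), and a gene that was not called may still have changed. Among called genes the rises were larger than the falls. Among the 38 genes that rose, 8 rose at least 2-fold and 16 less than 1.25-fold, with a median log2 fold change of 0.44. None of the 47 fallen genes reached 2-fold, 1 (MPZL2) passed 1.5-fold and 35 fell less than 1.25-fold, with a median of -0.24. ARC, MMP3, MMP10 and FOSB, which rose at least 2-fold, had 0 to 12 reads in each no-drug well. They passed the count filter only through wells with SH4-54, where they are high, so the filter bears on this contrast. Over all tested genes the median log2 fold change was -0.00363, and the outermost 1% on either side lay below -0.59 or above 0.63. In every called gene the 3 SH4-54 wells lay on 1 side of the 3 no-drug wells, while over all tested genes 9.13% had all SH4-54 wells higher and 12.1% all lower. The calls were made on these same wells, so the lack of overlap is a description and adds no separate evidence.

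**Figure D1:**
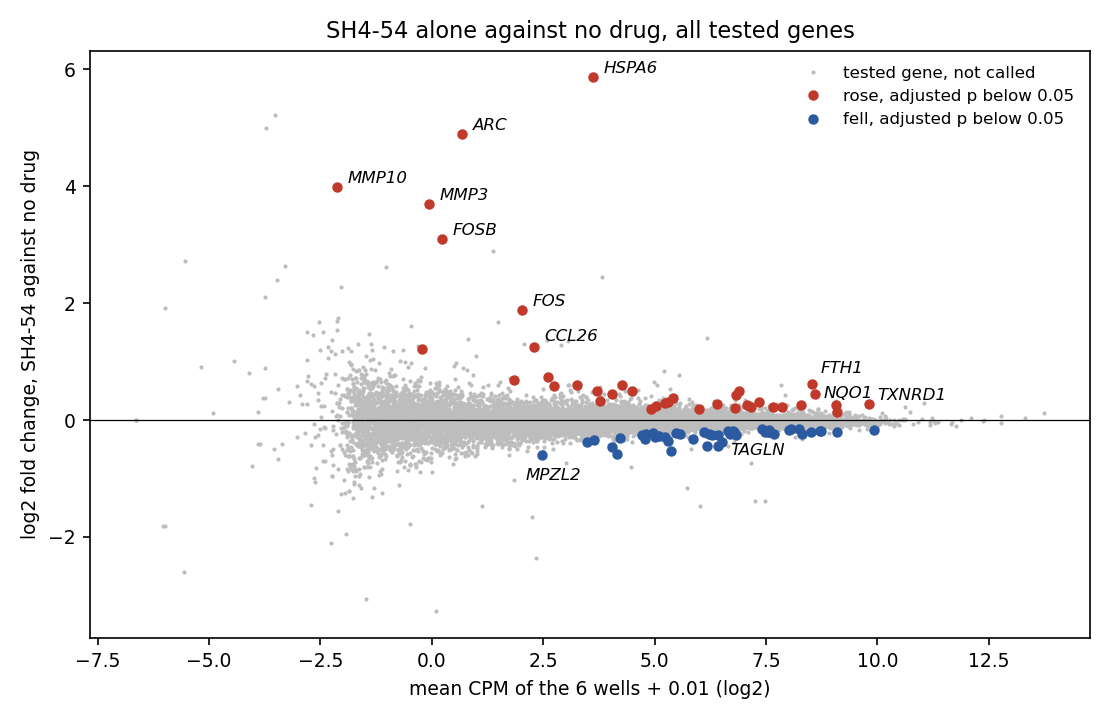
Each point is 1 of 14184 tested genes, by its mean CPM over the 6 wells plus 0.01 (log2, horizontal) and its log2 fold change with SH4-54 against no drug (vertical). Red points rose and blue points fell (edgeR adjusted p below 0.05). The largest rises, HSPA6 at 5.86 and ARC at 4.89, had less than 1 CPM in every no-drug well, and the 47 falls sit in a narrow band, the largest at -0.60.

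The number of calls depended on the libraries in the fit. Leaving out no-drug replicate 1, 2 or 3 gave 55, 26 or 35 calls, and leaving out SH4-54 replicate 1, 2 or 3 gave 48, 47 or 57. Each such fit has fewer wells. The combination wells, which are not part of the comparison, share the fit's estimate of spread: without them 210 genes were called, the 85 among them, and with the 6 compared libraries alone 155, of which 77 were among the 85. The calls missing from the fit to 6 libraries were those of SDSL, RNF167, XPO1, ANXA6, CAV1, EFNB1, MVK and JDP2, with an edgeR adjusted p of 0.0521 (ANXA6) to 0.0776 (EFNB1). Calls that held whichever of the 6 libraries was left out, and under every other alternative setting, numbered 23. Of these, 16 rose (among them HSPA6, ARC, MMP3, FOSB, ANGPTL4, FTH1, GUSBP1, RGS2, NQO1, SLC43A2, CYP1B1, ARRDC3, MT2A, TXNRD1 and AMIGO2) and 7 fell (RCSD1, TAGLN, LPIN1, SEPW1, MIR100HG, PKP3 and IGFBP3).

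The largest rise was that of HSPA6, a heat shock gene of the HSP70 family that is near silent in unstressed cells. It stood at 0.501, 0.265 and 0.457 CPM in the no-drug wells (8 to 16 reads) and at 25.4, 27.1 and 19.4 CPM in the SH4-54 wells (502 to 740 reads). Every treated well lay far above every untreated one, a log2 difference of 5.86 ± 0.719 (standard error, as in all differences below; edgeR adjusted p = 0.00118). Reads of HSPA6 may be shared with its near-identical copy HSPA7, which the counting could split. The other heat shock chaperones did not follow at this size. Of 28 tested members HSPA6 alone was called, and the median of the list was 0.02. At an unadjusted p below 0.05 by edgeR 4 members were higher and 0 lower, against 837 and 1025 of all 14184 genes. In 6 members all SH4-54 wells lay above all no-drug wells and in 0 below, against 9.13% and 12.1% of all genes. With both compounds against DEX alone 20 of the 28 were called higher and 0 lower, against 13% and 13.5% of all genes. HSP90AA1, which encodes the inducible cytosolic HSP90, stood at 1578 to 1671 CPM without drug and 1730.5 to 1802 CPM with SH4-54 (0.13 ± 0.0467, edgeR adjusted p = 0.244). DNAJB1, a co-chaperone of HSP70, stood at 161 CPM in each no-drug well and at 173, 180 and 181 CPM with SH4-54 (0.14 ± 0.0631, edgeR adjusted p = 0.354). With the 6 compared libraries alone DNAJB1 was called (edgeR adjusted p = 0.0297). HSPA1A and HSPA1B, which encode the main inducible HSP70 and are near-identical copies whose reads the counting could split, overlapped between the groups (0.28 ± 0.444 and 0.08 ± 0.178). CRYAB, a small heat shock gene, had no read in any no-drug well and stood at 0.241, 0.225 and 0 CPM with SH4-54 (edgeR adjusted p = 0.233).

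Immediate-early genes, which encode short-lived regulators switched on within minutes of a stimulus, were next. ARC, known from neurons as a synaptic activity gene, stood at 0.0939, 0.133 and 0.0703 CPM without drug (2 to 4 reads) and at 3.33, 3.19 and 2.7 CPM with SH4-54 (70 to 97 reads), a difference of 4.89 ± 0.506. FOSB, an AP-1 subunit, went from 0.376, 0.199 and 0.141 to 2.44, 2.14 and 1.7 CPM, a difference of 3.09 ± 0.433. FOS, the founding AP-1 subunit, went from 1.85, 1.66 and 1.69 to 7.35, 6.98 and 4.75 CPM, a difference of 1.88 ± 0.295. All 3 genes had every SH4-54 well above every no-drug well, and SH4-54 replicate 3 was the lowest of the treated wells in each. Their adjusted p by edgeR was 0.000231 for ARC, 0.00326 for FOSB and 0.00849 for FOS, and that of FOS was 0.0507 without no-drug replicate 2. These were the 3 calls among 25 tested immediate-early and AP-1 genes. The list's median was 0.18, and 10 members were higher and 2 lower at an unadjusted p below 0.05, against 837 and 1025 of all 14184 genes. EGR1, a zinc-finger immediate-early gene, stood at 0.438, 0.464 and 0.141 CPM without drug and at 1.48, 0.901 and 0.849 CPM with SH4-54, groups that did not overlap, and did not pass (1.61 ± 0.379, edgeR adjusted p = 0.0829).

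The protease genes MMP3 and MMP10 and the protease inhibitor gene SERPINB2 were among the low-level genes that rose. MMP3, which encodes the matrix metalloprotease stromelysin-1, stood at 0.0939, 0.166 and 0.141 CPM without drug (3 to 5 reads) and at 2.03, 1.46 and 1.81 CPM with SH4-54 (39 to 59 reads), a difference of 3.70 ± 0.477 (edgeR adjusted p = 0.00163). MMP10, its close relative stromelysin-2, had 0, 1 and 1 reads without drug and 15, 10 and 9 reads with SH4-54, a ratio of summed levels of 18.9 with a 95% interval from counting error alone of 4.83 to 162. The call of MMP10 (edgeR adjusted p = 0.03) was lost whichever of the 6 libraries was left out, with values from 0.0584 to 0.121. The stricter count filter removed MMP10, and DESeq2 gave no adjusted p for it or for SERPINB2. SERPINB2, a plasminogen activator inhibitor gene, went from 0.563, 0.464 and 0.492 to 1.13, 1.28 and 1.16 CPM. Its difference was 1.22 ± 0.206 (edgeR adjusted p = 0.0109, 0.084 or 0.0722 when no-drug replicate 2 or 3 was left out, and 0.0555 when SH4-54 replicate 2 was). In the list of 15 tested metalloproteases and their tissue inhibitors the rises of MMP3 and MMP10 stood beside 1 fall. Of all genes tested 0.268% were called higher and 0.331% lower. The list had 2 members higher and 1 lower at an unadjusted p below 0.05 by edgeR (837 and 1025 of all 14184 genes). Its median was -0.08, with 5 members above 0 and 10 below. The fall was that of the membrane-type metalloprotease gene MMP24, from 20.1, 20.7 and 20.6 to 16.9, 17.1 and 15.7 CPM. The fall of MMP24 was 0.30 on the log2 scale, a difference of -0.30 ± 0.0535 (edgeR adjusted p = 0.0145), and leaving out no-drug replicate 2, no-drug replicate 3 or SH4-54 replicate 3 ended the call (0.0869, 0.073 and 0.0748).

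CCL26, an eosinophil-attracting chemokine gene, stood at 2.79, 2.88 and 3.02 CPM without drug and at 7.42, 7.02 and 6.17 CPM with SH4-54. The difference of 1.25 ± 0.217 had an edgeR adjusted p of 0.0135, and leaving out any library other than SH4-54 replicate 3 ended the call, with values up to 0.0789. ANGPTL4, which encodes an inhibitor of lipoprotein lipase, went from 5.04, 4.38 and 4.18 to 8.04, 8 and 6.75 CPM (0.74 ± 0.0948). ANGPT1, the gene of the TIE2 receptor's ligand angiopoietin-1, went from 3, 2.52 and 2.67 to 4.61, 4.62 and 3.94 CPM (0.68 ± 0.135). None of these groups overlapped. The call of ANGPTL4 (edgeR adjusted p = 0.00163) held in each left-out fit, and that of ANGPT1 (0.0328) held only without SH4-54 replicate 3, with values of 0.176 or less in the others. GUSBP1, a transcribed pseudogene whose reads may be shared with related copies, went from 7.2, 8.02 and 7.63 to 10.7, 13.5 and 10.5 CPM (0.60 ± 0.0954, edgeR adjusted p = 0.00858).

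**Figure D2:**
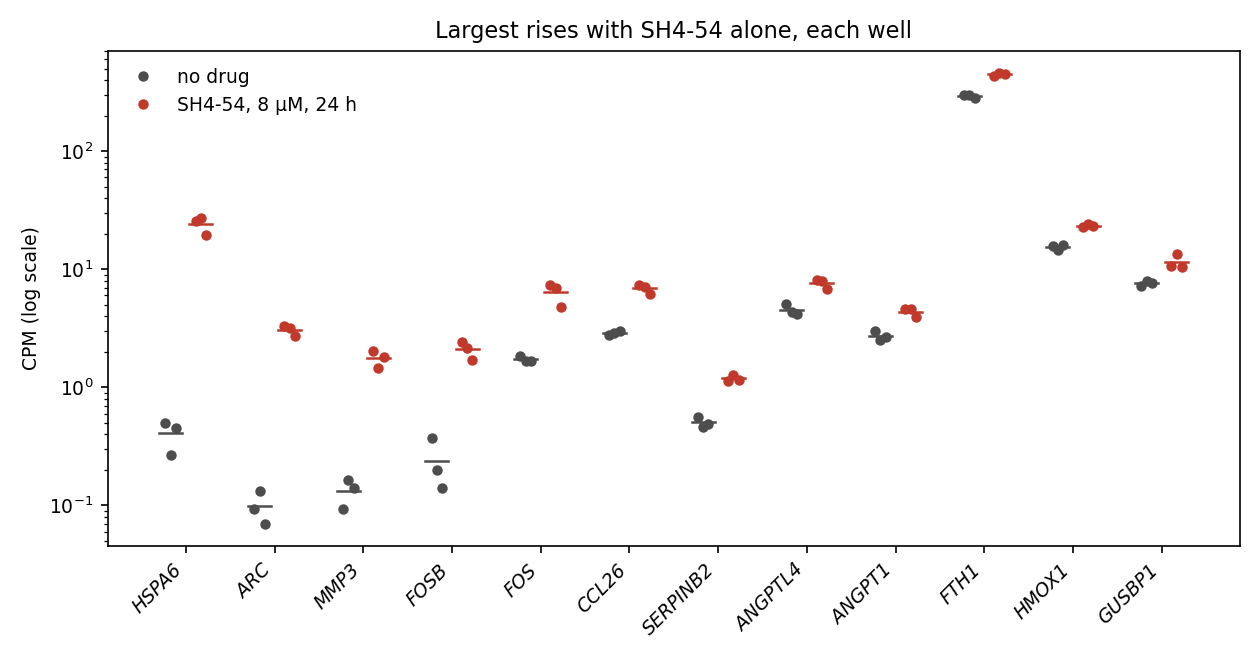
CPM (log scale) in each well for the 12 called genes with the largest rises and a group mean of 1 CPM or more. Dark points are the 3 no-drug wells, red points the 3 SH4-54 wells, and bars their means. No pair of groups overlaps, and the first 5 genes start below 2 CPM.

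Antioxidant genes under NRF2 formed the gene list with the most calls. Of its 32 tested members 8 rose and 0 fell, 20 were higher and 0 lower at an unadjusted p below 0.05 by edgeR (837 and 1025 of all 14184 genes), and the median was 0.17. In 21 members all SH4-54 wells were above all no-drug wells, against 9.13% of all genes tested. Among the called members FTH1 and HMOX1, of iron storage and haem breakdown, rose most, while AKR1C2, an aldo-keto reductase gene, had the largest difference in the list and did not pass (1.04 ± 0.348, edgeR adjusted p = 0.212). FTH1, the ferritin heavy chain gene, stood at 298, 298 and 279.6 CPM without drug and at 437, 457 and 451 CPM with SH4-54, a rise of 53.6% (log2 0.62 ± 0.0527, edgeR adjusted p = 3.7e-05), though its reads can be shared with many processed pseudogenes. HMOX1, haem oxygenase-1, went from 15.7, 14.5 and 15.9 to 22.8, 24.4 and 23 CPM (0.61 ± 0.0979, edgeR adjusted p = 0.00999, and 0.0723 without no-drug replicate 2). The FTL transcript of the ferritin light chain stood at 1832, 1857 and 2047 CPM without drug and at 2215, 2422 and 2379 CPM with SH4-54, without overlap, and did not pass (0.29 ± 0.079, edgeR adjusted p = 0.129). FTL passed with the 6 compared libraries alone (edgeR adjusted p = 0.0235). FTH1 and HMOX1 were the only calls among 16 tested iron handling genes, where 0.599% of all genes tested were called. The median of the iron list was 0.0071, with 9 members above 0 and 7 below. Of its members 4 were higher and 1 lower at an unadjusted p below 0.05 by edgeR.

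Enzymes that reduce quinones and thioredoxin and that make glutathione also rose. NQO1, the quinone reductase gene, had the smallest p of all genes: 324, 321 and 333 CPM without drug and 434, 455 and 450.3 CPM with SH4-54, a rise of 36.8% (0.45 ± 0.0328, edgeR adjusted p = 1.27e-05). TXNRD1, thioredoxin reductase, whose antioxidant element is printed above, went from 786, 803 and 845 to 962, 976 and 990.4 CPM (0.27 ± 0.0407, edgeR adjusted p = 0.00624). In both genes the distance between the groups exceeded the spread within them. GCLM, the modifier subunit of the enzyme that starts glutathione synthesis, went from 180.2, 183 and 192 to 225, 208 and 217 CPM (0.23 ± 0.0421, edgeR adjusted p = 0.0203), a call that held without no-drug replicate 3 or SH4-54 replicate 2 and was lost without any other library, at up to 0.131. SQSTM1, the autophagy receptor p62, stood at 484, 490.4 and 492 CPM without drug and 574, 576 and 593 CPM with SH4-54 (0.25 ± 0.0465, edgeR adjusted p = 0.0215), and fits without any 1 library gave 0.0637 to 0.099. TRIM16L, a list member, and its near copy TRIM16, a ubiquitin ligase gene outside the list, between which reads can be split, rose by 0.50 ± 0.0944 and 0.29 ± 0.0542 on the log2 scale. Without single libraries their adjusted p by edgeR ranged from 0.051 to 0.111 for TRIM16L and from 0.0327 to 0.126 for TRIM16, which kept its call only without no-drug replicate 2 or SH4-54 replicate 3. Of the regulators, NFE2L2, which encodes NRF2, overlapped between the groups (-0.03 ± 0.0378), as did KEAP1, which encodes its inhibitor (-0.01 ± 0.0364).

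Transcripts of STAT genes, the named targets among them, did not pass. STAT3 stood at 197 to 201 CPM without drug and 191 to 200.2 CPM with SH4-54, a log2 difference of -0.03 with a 95% interval of -0.11 to 0.06. STAT5B had a difference of -0.07 (-0.16 to 0.03) and STAT5A one of 0.02 (-0.15 to 0.18). None of the 7 tested STAT genes was called, and 0 had an unadjusted p below 0.05 by edgeR.

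Among transcripts that STAT3 and STAT5 are known to switch on, 2 of 30 tested were called, where 0.599% of all genes tested were. Of these 1 rose (FOS, an AP-1 gene that many other signals also switch on) and 1 fell (SOCS2), 4 were higher and 2 lower at an unadjusted p below 0.05 by edgeR (837 and 1025 of all 14184 genes), and the median was 0.02. SOCS2, a feedback inhibitor of cytokine signalling known as a STAT5 target, stood at 89.9, 93.3 and 96.8 CPM without drug and at 77.8, 77.4 and 78.7 CPM with SH4-54. It changed by -16.5% on average, with groups that did not overlap (-0.26 ± 0.0445, edgeR adjusted p = 0.0124). That call held without no-drug replicate 1 or SH4-54 replicate 3 and was lost in the other 4 left-out fits, with an adjusted p of up to 0.0879. SOCS3, the standard STAT3 feedback gene, stood at 83.1, 80.9 and 84.3 CPM without drug and at 82.1, 82.2 and 80 CPM with SH4-54, overlapping groups with a difference of -0.02 (95% interval -0.11 to 0.07). BCL3, a target with few reads, had a difference of 0.05 and an interval of -0.32 to 0.43. BIRC5, which encodes survivin, stood at 211, 215 and 221 CPM without drug and at 196, 201 and 198 CPM with SH4-54, without overlap, and did not pass (-0.12 ± 0.0366, edgeR adjusted p = 0.175). Among 18 tested genes of IL-6 family ligands, receptors and Janus kinases 0 were called, and 2 were higher and 0 lower at an unadjusted p below 0.05 by edgeR. The ligand gene IL6 had the largest difference, from 7.26, 6.86 and 7.1 to 9.18, 10.6 and 10.6 CPM (0.51 ± 0.126, edgeR adjusted p = 0.0946), and the shared receptor gene IL6ST one of 0.07 ± 0.0291 (0.331). IL6 was called with the 6 compared libraries alone (edgeR adjusted p = 0.0208).

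Glucocorticoid-induced genes, a list of genes that the ligand-bound glucocorticoid receptor switches on, included 5 that rose in these wells without any glucocorticoid. The 27 tested members had 5 rises and 0 falls, against 0.268% and 0.331% of all genes tested, with a median of 0.05. The list was mixed, with 6 members higher and 2 lower at an unadjusted p below 0.05 by edgeR (837 and 1025 of all 14184 genes). In 6 members all SH4-54 wells lay above all no-drug wells and in 3 below. RGS2, a regulator of G-protein signalling, went from 10.4, 10.4 and 11.4 to 15.1, 15.8 and 14.7 CPM (0.50 ± 0.0616, edgeR adjusted p = 0.00118). Further rises in the list were those of ANGPTL4, given above, the metallothionein gene MT2A and BIRC3, an inhibitor of apoptosis gene. MT2A went from 143, 148 and 143 to 183, 181 and 173 CPM (0.31 ± 0.0422, edgeR adjusted p = 0.00304), and reads of metallothionein genes can be shared among their copies. BIRC3 went from 117, 120.0 and 131 to 142, 150.2 and 148 CPM (0.26 ± 0.044, edgeR adjusted p = 0.0109, 0.061 or 0.0852 when no-drug replicate 1 or 2 was left out, and 0.0641 when SH4-54 replicate 2 was). FKBP5, a defining glucocorticoid target, overlapped between the groups, with a difference of 0.01 and a 95% interval of -0.22 to 0.24. NR3C1, which encodes the receptor, had a difference of -0.04 and an interval of -0.10 to 0.02.

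NF-kB and cytokine genes had a higher median than most lists, 0.14 over 28 tested members, with BIRC3 the 1 call. At an unadjusted p below 0.05 by edgeR 8 members were higher and 1 lower, against 837 and 1025 of all 14184 genes. CXCL8, the interleukin-8 gene, stood at 9.26, 8.25 and 8.15 CPM without drug and at 9.79, 11.6 and 12.6 CPM with SH4-54, without overlap, and did not pass (0.40 ± 0.101, edgeR adjusted p = 0.109).

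Most of the other genes that rose belong to none of the lists above. CYP1B1, a cytochrome P450 gene known as a target of the aryl hydrocarbon receptor, went from 102, 94.1 and 92 to 133, 127 and 129 CPM (0.43 ± 0.038, edgeR adjusted p = 4.03e-05). SLC43A2, a gene of a neutral amino acid transporter, rose by 0.44 ± 0.0594 on the log2 scale, and ARRDC3, an arrestin family gene, by 0.38 ± 0.0574. AMIGO2, a cell adhesion gene, rose by only 0.22 ± 0.0263, with 218, 212 and 211 CPM without drug and 250.1, 247 and 248 CPM with SH4-54, and its call held in every left-out fit. ANXA10, an annexin gene, rose by 0.58 ± 0.116, but no left-out fit called it (edgeR adjusted p 0.0651 to 0.185). SNRPA1, a spliceosome gene, rose by 0.31 ± 0.0505 (edgeR adjusted p = 0.0523 without no-drug replicate 1), and CPT1A, which brings fatty acids into mitochondria, by 0.21 ± 0.0349 (0.0951 without no-drug replicate 2). UGDH, the UDP-glucose dehydrogenase gene and the last of the 8 calls in the antioxidant list, rose by 0.22 ± 0.0368 (0.0869 or 0.0686 without no-drug replicate 2 or SH4-54 replicate 2).

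The remaining rises were small and rested on the full set of wells. SDSL (0.32 ± 0.0647) and the choline transporter family gene SLC44A2 (0.27 ± 0.0462) lost the call in most left-out fits, with an edgeR adjusted p of up to 0.17 and 0.0911. Both held it without no-drug replicate 1, and SLC44A2 also without SH4-54 replicate 1. The polyamine synthesis gene ODC1 (0.25 ± 0.0515), LOC100506548 (0.24 ± 0.0501), the ubiquitin ligase gene RNF167 (0.19 ± 0.0382) and the nuclear export receptor gene XPO1 (0.14 ± 0.0294) lost it in all 6, with an edgeR adjusted p between 0.0651 and 0.177.

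The falls were spread over many functions and were all small. The lists with the lowest medians were cholesterol synthesis and uptake, luminal epithelial genes, interferon-stimulated genes, fatty acid synthesis and mitosis, each with between 1 and 3 calls. The plot of gene lists shows each member beside these medians.

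**Figure D3:**
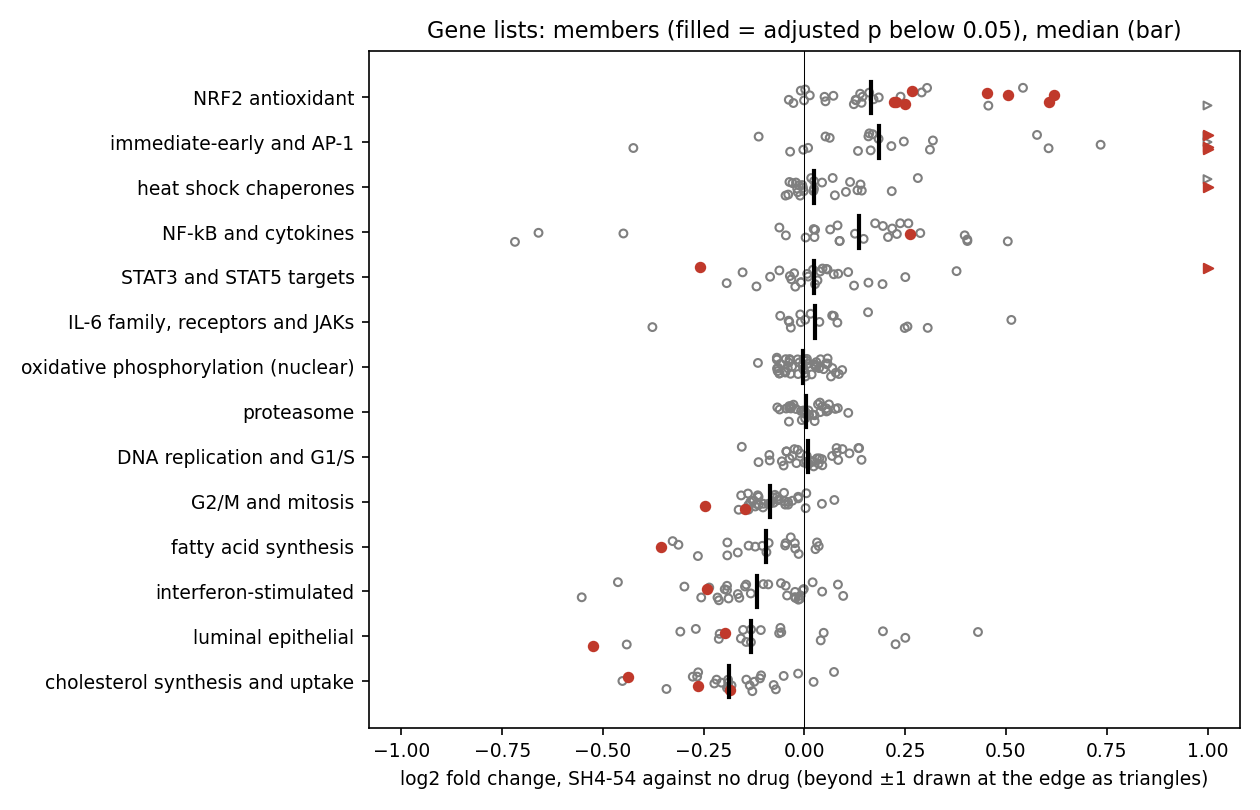
Log2 fold change with SH4-54 against no drug (horizontal) of each tested member of 14 of the 31 gene lists (rows). Filled red points were called (edgeR adjusted p below 0.05), open points were not, triangles at the right edge lie beyond 1, and black bars are list medians. The NRF2 antioxidant list (median 0.17) lies mostly right of 0 and the cholesterol list (median -0.19) mostly left of it, while oxidative phosphorylation, proteasome and replication genes lie close to 0.

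Sterol genes stood lower in the SH4-54 wells, most of them below the threshold of the test. Of 28 tested cholesterol synthesis and uptake genes 3 fell and 0 rose, 26 had a negative log2 fold change, and 19 were lower and 0 higher at an unadjusted p below 0.05 by edgeR. Of all 14184 genes 1025 were lower and 837 higher at that p. The list's median was -0.19, and in 21 members every SH4-54 well lay below every no-drug well, against 12.1% of all genes tested. ACAT2 and MVK were among those that fell. ACAT2, a thiolase that makes the first intermediate of the pathway, went from 113, 113 and 119 to 97.9, 102 and 103 CPM (-0.18 ± 0.0344, edgeR adjusted p = 0.0214). MVK, mevalonate kinase, went from 31, 27.7 and 27.9 to 22.8, 24.6 and 24.7 CPM (-0.26 ± 0.0553, edgeR adjusted p = 0.0457). No left-out fit called ACAT2 or MVK, with an adjusted p of at least 0.05 and up to 0.128 for ACAT2 and from 0.0786 to 0.174 for MVK. The transcript of the pathway's regulator SREBF2 overlapped between the groups (-0.08 ± 0.0656). DESeq2 called 10 of the list lower, and edgeR without the count filter or with the 6 libraries alone 11, although the fit to 6 libraries did not call MVK (edgeR adjusted p = 0.0737).

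In the neighbouring list of 21 tested fatty acid synthesis genes 1 fell, 18 had a negative log2 fold change, and 8 were lower and 0 higher at an unadjusted p below 0.05 by edgeR (1025 and 837 of all 14184 genes), with a median of -0.09. LPIN1, a phosphatidate phosphatase gene, was the call, from 46.1, 44.7 and 41.9 to 34.8, 33.9 and 34.9 CPM, a mean change of -21.9% (-0.36 ± 0.0498, edgeR adjusted p = 0.00326), and it held in every left-out fit. SREBF1, which encodes the regulator of this pathway, stood at 59.3, 55.6 and 53.1 CPM without drug and at 48, 45.2 and 46.6 CPM with SH4-54, without overlap, and did not pass (-0.26 ± 0.0622, edgeR adjusted p = 0.0829). SREBF1 passed with the 6 compared libraries alone (edgeR adjusted p = 0.0467). Outside the lists, 2 other lipid enzymes fell, which were picked out after their values were seen. PCYT2, of phosphatidylethanolamine synthesis, fell by 0.24 on the log2 scale and DDHD2, a phospholipase gene, by 0.28, and both calls held only without SH4-54 replicate 3 (edgeR adjusted p of up to 0.138 and 0.123 otherwise).

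Interferon-stimulated genes had a median of -0.12 over 34 tested members, of which 30 had a negative log2 fold change, 10 were lower and 0 higher at an unadjusted p below 0.05 by edgeR (1025 and 837 of all 14184 genes), and 1 fell. ISG15, a ubiquitin-like modifier, was that call, from 224, 219 and 219 to 180.1, 194 and 187 CPM (-0.24 ± 0.0395, edgeR adjusted p = 0.0102, and 0.0518 without no-drug replicate 2). IFIT1, an RNA-binding antiviral gene, stood at 328, 295 and 321 CPM without drug and at 239, 269 and 260.0 CPM with SH4-54, without overlap, and did not pass (-0.30 ± 0.0672, edgeR adjusted p = 0.0728). It passed with the 6 compared libraries alone (edgeR adjusted p = 0.0275).

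Mitotic genes stood slightly lower. Of 37 tested G2/M and mitosis genes 2 fell and 0 rose, 33 had a negative log2 fold change, and 20 were lower and 0 higher at an unadjusted p below 0.05 by edgeR (1025 and 837 of all 14184 genes), with a median of -0.09. The list did not stand lower with both compounds against DEX alone, where its median was 0.01. There 4 of the 37 were called higher and 6 lower, against 13% and 13.5% of all genes. KIF20A, a kinesin of the central spindle, went from 338, 344 and 346 to 283, 293 and 289 CPM (-0.25 ± 0.0442, edgeR adjusted p = 0.0163), and NDC80, a kinetochore gene, from 177, 178 and 182 to 162, 162 and 160.5 CPM (-0.15 ± 0.0293, edgeR adjusted p = 0.0328). KIF20A was called only without no-drug replicate 1 among the left-out fits (up to 0.0911 otherwise) and NDC80 in none (0.0726 to 0.17). Other fallen genes with a role at chromosomes or in division, picked out after their values were seen, were CEP55 of abscission (-0.19 ± 0.0306), NEDD1 of the spindle (-0.26 ± 0.0383), the condensin gene SMC2 (-0.15 ± 0.031), the lamin receptor gene LBR (-0.16 ± 0.0266), HMGB3 (-0.21 ± 0.0447) and the cyclin gene CCNA1. Without no-drug replicate 2 the edgeR adjusted p was 0.0717 for CEP55, 0.0501 for NEDD1 and 0.0778 for LBR, and without no-drug replicate 3 it was 0.0634 for CEP55 and 0.0632 for LBR, which also missed without SH4-54 replicate 2 (0.0555). SMC2 and HMGB3 were called in no left-out fit (up to 0.202 and 0.233). CCNA1, the cyclin A1 gene, stood at 19.3, 19.9 and 17.8 CPM without drug and at 12.9, 14.6 and 13.9 CPM with SH4-54, without overlap (-0.47 ± 0.0687, edgeR adjusted p = 0.0052, and 0.0501 without no-drug replicate 2). DNA replication and G1/S genes, by contrast, had a median of 0.01 over 36 tested members, with 3 higher and 3 lower at an unadjusted p below 0.05 by edgeR and 0 called. Whether the mitotic and replication lists differ from each other was not tested.

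Luminal epithelial genes included 2 falls and 0 rises among 22 tested members (median -0.13), against 0.331% and 0.268% of all genes tested. Of the members 16 had a negative log2 fold change and 6 a positive one. By edgeR 7 were lower and 0 higher at an unadjusted p below 0.05 (1025 and 837 of all 14184 genes). AGR2, a protein disulfide isomerase gene of luminal cells, stood at 54.7, 45.9 and 45 CPM without drug and at 28.3, 36.7 and 36.3 CPM with SH4-54, with the widest spread among the named falls (-0.53 ± 0.0911, edgeR adjusted p = 0.0132, and 0.0624 without no-drug replicate 1). KRT19, a keratin gene, went from 391, 396 and 385 to 322, 348 and 352 CPM (-0.20 ± 0.0362, edgeR adjusted p = 0.0195, and up to 0.117 in all left-out fits but that without SH4-54 replicate 3). EPCAM, an epithelial adhesion gene, stood at 20.8, 21.2 and 21.3 CPM without drug and at 18.5, 19 and 17.3 CPM with SH4-54 and did not pass (-0.21 ± 0.0508, edgeR adjusted p = 0.0889).

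The largest falls outside the lists are given by well. MPZL2, an immunoglobulin-type adhesion gene, went from 6.79, 6.36 and 6.89 to 4.09, 4.35 and 4.79 CPM, a mean change of -34.1% (-0.60 ± 0.108, edgeR adjusted p = 0.0171), though of the left-out fits only that without SH4-54 replicate 3 called it (up to 0.102 otherwise). RCSD1, a gene of a protein that binds an actin-capping protein, went from 21, 22.8 and 20.4 to 13.1, 15 and 15.1 CPM (-0.57 ± 0.0738, edgeR adjusted p = 0.00163). TAGLN, an actin-binding gene of contractile cells, went from 99.5, 104 and 105 to 76.9, 79.7 and 80.8 CPM (-0.38 ± 0.0338) and had the smallest adjusted p of all falls, 4.29e-05 by edgeR. The groups were apart in each of these genes, most widely for TAGLN relative to its spread. COL8A1, a collagen gene, stood at 82.9, 83.1 and 83.5 CPM without drug and at 59.8, 61.8 and 62.7 CPM with SH4-54 (-0.44 ± 0.071, edgeR adjusted p = 0.00999, and 0.0566 or 0.0516 without no-drug replicate 2 or 3). SEPW1, the selenoprotein W gene, went from 63.7, 65 and 65.5 to 51.8, 52 and 50.7 CPM (-0.33 ± 0.0372, edgeR adjusted p = 0.000587). MIR100HG, a long non-coding RNA that hosts microRNA genes, went from 30.3, 29.8 and 31.1 to 24.1, 24.3 and 24.4 CPM (-0.33 ± 0.0469, edgeR adjusted p = 0.00438). Wells within a group differed by less than 2 CPM for SEPW1 and MIR100HG, well under the distance between the groups. HAS2, a hyaluronan synthase gene, went from 14, 14.1 and 13.7 to 10.9, 11.3 and 10.8 CPM (-0.34 ± 0.065, edgeR adjusted p = 0.024), and JDP2, a repressor of AP-1, from 11.5, 13.5 and 12.7 to 10.1, 9.38 and 9.69 CPM (-0.37 ± 0.0749, edgeR adjusted p = 0.0356). HAS2 was called in no left-out fit (0.0809 to 0.147) and JDP2 only without no-drug replicate 1 (up to 0.212 otherwise).

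**Figure D4:**
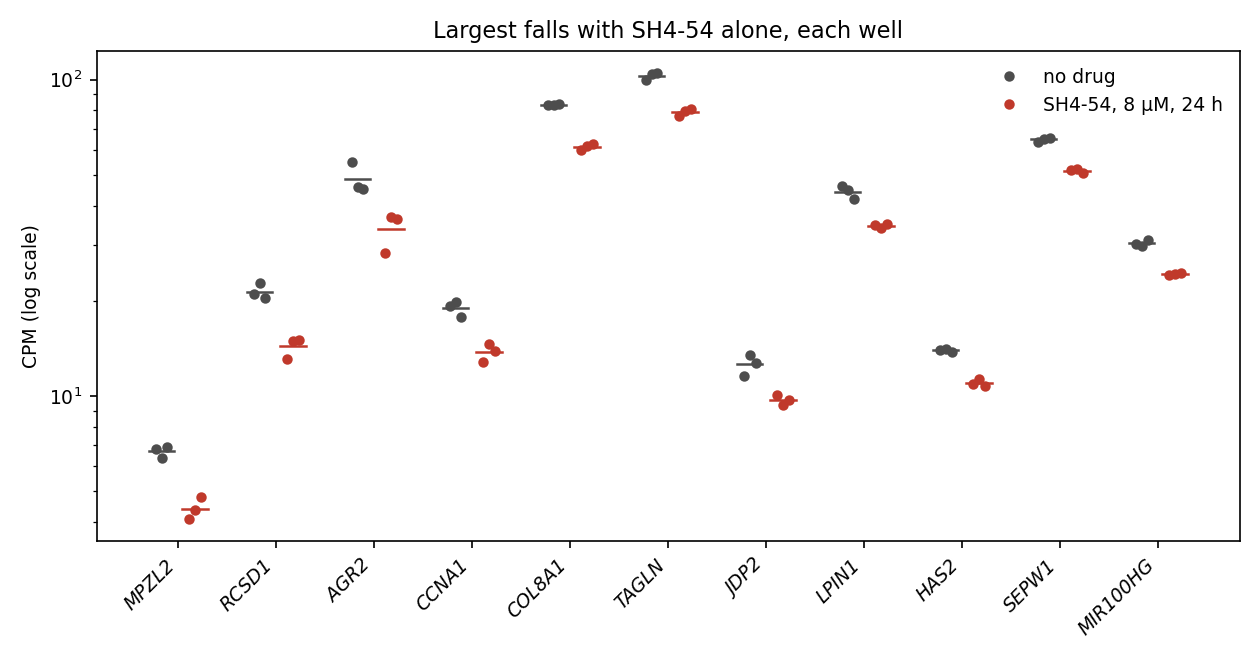
CPM (log scale) in each well for 11 of the 12 called genes with the largest falls and a group mean of 1 CPM or more. Dark points are the 3 no-drug wells, red points the 3 SH4-54 wells, and bars their means. Each fall is smaller than 2-fold and no pair of groups overlaps, with AGR2 showing the widest spread within groups.

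The other falls lay between -10.4% (ANXA6) and -18.5% (PKP3). They are described by the role of their products, a grouping made after their values were seen. IGFBP3, which binds insulin-like growth factors, fell from 37, 37.7 and 37.5 to 31.3, 30.1 and 31.1 CPM (-0.28 ± 0.0416, edgeR adjusted p = 0.00559), and PKP3, of desmosomes, from 35.6, 35.4 and 35.2 to 27.5, 28.5 and 30.6 CPM (-0.30 ± 0.0468, edgeR adjusted p = 0.00858). Both calls held in every left-out fit. The laminin-binding integrin gene ITGA6 stood at 579, 587 and 584 CPM without drug and at 503, 504 and 508 CPM with SH4-54 (-0.21 ± 0.0346), and its edgeR adjusted p was 0.0717 or 0.0561 when no-drug replicate 2 or 3 was left out and 0.0517 when SH4-54 replicate 2 was. The syndecan genes SDC1 (-0.20 ± 0.0345) and SDC2 (-0.20 ± 0.0373), the adhesion gene MCAM (-0.20 ± 0.0387), the caveolin gene CAV1 (-0.16 ± 0.034), the junction gene LMO7 (-0.18 ± 0.0311), the annexin gene ANXA6 (-0.16 ± 0.032) and the ephrin gene EFNB1 (-0.23 ± 0.0458) also fell. So did the genes of the secreted proteins FSTL1 (-0.19 ± 0.0313), GAS6 (-0.19 ± 0.0348), MATN2 (-0.24 ± 0.0405), INHBB (-0.25 ± 0.0495) and IL18 (-0.18 ± 0.0376), the glycosyltransferase genes GALNT5 (-0.21 ± 0.0411) and GALNT6 (-0.23 ± 0.0436), and ARG2, DNAJC6 and SFXN2 (-0.24 ± 0.0473, -0.24 ± 0.0405 and -0.26 ± 0.0483). SDC2 missed when no-drug replicate 2, no-drug replicate 3 or SH4-54 replicate 1 was left out (edgeR adjusted p = 0.123, 0.123 and 0.0768). MCAM, FSTL1, MATN2, DNAJC6 and SFXN2 missed in 4 left-out fits, INHBB in all 6 and the others of this group in 5, with an edgeR adjusted p of up to 0.207 (CAV1). Leaving out no-drug replicate 1 kept the calls of MCAM, MATN2, FSTL1, DNAJC6, SFXN2, CAV1, IL18 and ARG2, and leaving out SH4-54 replicate 1 those of FSTL1, DNAJC6, SDC1 and GALNT6. Leaving out SH4-54 replicate 2 kept SFXN2, LMO7 and GALNT5, and leaving out SH4-54 replicate 3 kept MCAM, MATN2, ANXA6, GAS6 and EFNB1.

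Among the lists not yet described, 8 had a call in 0 members: ATF4 stress (32 tested), ER chaperones (25), nuclear oxidative phosphorylation genes (49), mitochondrial chaperones and proteases (14), mitochondrial biogenesis (15), proteasome (33), BCL2 family (18) and DUSP and SPRY feedback (19). At an unadjusted p below 0.05 by edgeR they had 5 higher and 4 lower, 1 and 4, 0 and 2, 0 and 2, 1 and 0, 1 and 0, 1 and 0, and 2 and 1 members, in that order. Of all 14184 genes 837 were higher and 1025 lower at that p. The proteasome list, whose genes rise with proteasome inhibition, had differences between -0.07 and 0.11, and the oxidative phosphorylation list between -0.12 and 0.09. No call was made either among 24 tested CDK inhibitor and p53 target genes, where CDKN1A, the p21 gene, stood at 60.3, 57 and 54.4 CPM without drug and at 63.1, 67.2 and 68.3 CPM with SH4-54 (0.21 ± 0.049, edgeR adjusted p = 0.0829). That list had 4 members higher and 3 lower at an unadjusted p below 0.05. The hypoxia, autophagy and metallothionein lists each had 1 rise and 0 falls, of a gene named above (ANGPTL4, SQSTM1 and MT2A), and the mesenchymal list and the TGF-beta and YAP list also had 1 rise and 0 falls each.

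The same compound was also given to wells with DEX, and those wells share no library with the comparison above. They did enter the fit that made its calls, so their spread bears on which genes were called. Of all 14184 genes, 13% were called higher and 13.5% lower with both compounds than with DEX alone. Of the 38 genes that rose with SH4-54 alone, 28 also rose there, 0 fell and 10 were not called, and 35 had a positive difference, against 51.1% of all genes. Of the 47 that fell, 35 also fell, 2 rose (SOCS2 and KIF20A) and 10 were not called, and 43 had a negative difference. The median difference of the 38 was 0.44 without DEX and 0.39 with it, and that of the 47 was -0.24 and -0.25.

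The low-level genes that led without DEX reached higher levels in DEX wells. HSPA6 stood at 0.232, 0.308 and 0.641 CPM with DEX and at 150.3, 483 and 156 CPM with both compounds, and MMP3 at 0, 0.103 and 0.339 CPM against 7.81, 7.75 and 4.82 CPM. For these genes the difference between the effects was not called. It was called for FOS, which stood at 1.32, 1.13 and 1.13 CPM with DEX and at 24.1, 37.5 and 17.6 CPM with both, and for CCL26, at 0.812, 1.1 and 1.02 CPM against 23.6, 32.7 and 17 CPM. Combination replicate 2 was the highest well for HSPA6, FOS and CCL26.

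In all, the interaction test called a different effect in 20 of the 85 genes, against 3.9% of all genes tested, and since the 85 were chosen on the effect without DEX, which enters that test, this share is a description. Among risen genes 6 had a larger rise with DEX (FOS, CCL26, ANXA10, HMOX1, CYP1B1 and SQSTM1) and 5 a smaller one (among them ANGPTL4, ANGPT1, RGS2 and MT2A). RGS2, ANGPTL4 and MT2A belong to the glucocorticoid-induced list. MT2A stood at 797, 784 and 813 CPM against 805, 709 and 778 CPM, and ANGPTL4 at 72.3, 71.5 and 73.2 CPM against 68.3, 61.3 and 71.5 CPM. Among fallen genes the fall was larger with DEX for COL8A1, ACAT2 and IL18 among others, and smaller or turned for KIF20A, SOCS2, MATN2, IGFBP3 and LMO7. SOCS2 stood at 35.5, 34.9 and 36.7 CPM with DEX and at 40.4, 45.1 and 40.1 CPM with both, so it rose there (0.23, edgeR adjusted p = 0.00295) and fell without DEX.

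**Figure D5:**
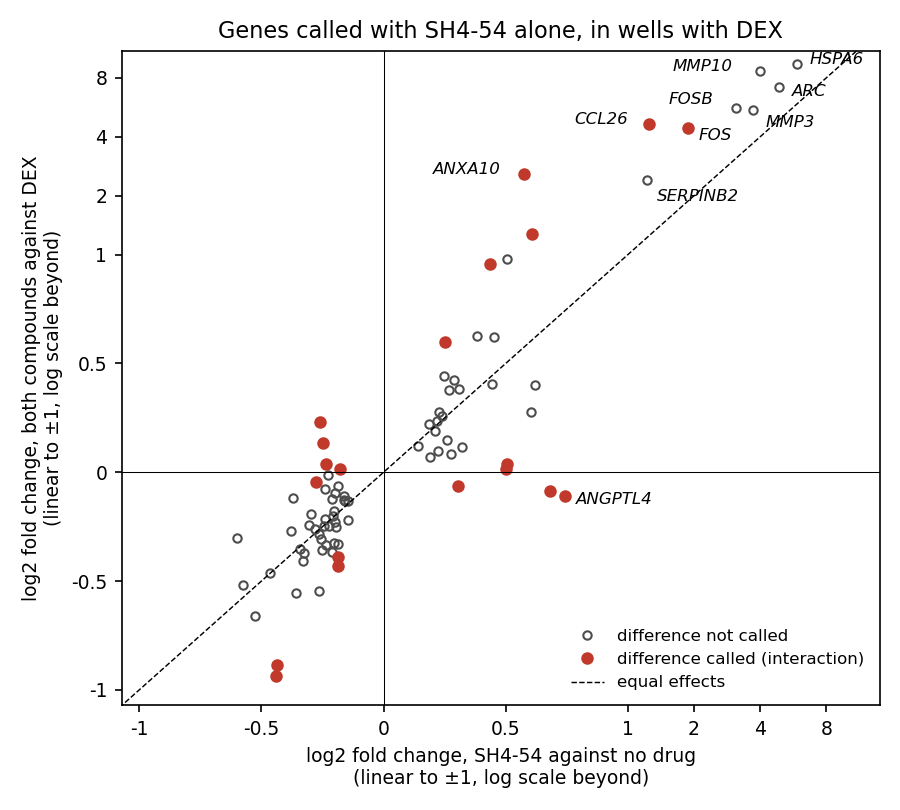
Each point is 1 of the 85 genes called with SH4-54 alone, by its log2 fold change with SH4-54 against no drug (horizontal) and with both compounds against DEX (vertical), on axes that are linear to 1 on either side of 0 and logarithmic beyond. Filled red points are the 20 genes whose effects differed by the interaction test, and the dashed line marks equal effects. FOS, CCL26 and ANXA10 lie above the line, ANGPTL4 lies below 0 on the vertical axis, and most falls lie near the line.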

How the data were processed

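The table that the authors deposited holds raw counts per gene symbol in 12 libraries (26364 rows, 4474 of them 0 throughout) and rests on HISAT2 2.1.0 alignments to hg19 (GRCh37), SAMtools and counting by featureCounts 1.5.1, per the submitters' processing notes. Libraries were stranded, depleted of ribosomal RNA and read as 50-base single ends, per the labels' protocols. The sources used here give neither the annotation, nor how strand and multi-mapped reads were treated in counting, so overlapping genes and genes with near-identical copies are uncertain. Titles of the samples gave the groups and replicate numbers, although another label of the samples with SH4-54 has the name as SH5-54.

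Counts were filtered with filterByExpr (14184 genes left), scaled by TMM and fitted with edgeR 4.0.16 in R 4.3.3 as 1 quasi-likelihood model of the 4 groups over all 12 libraries, with 8 residual degrees of freedom. Every adjusted p is a Benjamini-Hochberg value across the genes tested, and 0.05 was the threshold. Each standard error is the size of the log2 fold change divided by the root of its F statistic, and CPM values use TMM-scaled library sizes. The test was tried on simulated data of this comparison with 14184 genes, where it recovered 27, 38, 48 and 50 of 50 genes changed 1.25-, 1.5-, 2- and 4-fold, and 4.68% of its calls fell on unchanged genes. That was 1 run with the no-drug means in all 4 groups, apart from the changed genes, and 1 spread per gene. It held neither a DEX effect nor a separate spread for the combination wells, so these rates may not hold for the data. The alternatives tried were edgeR with size factors from DESeq2, DESeq2's own Wald test (version 1.42.0), testing without any filter on counts, a filter of 1 CPM in 3 or more libraries with 20 counts on average, a block for the replicate number, the 6 compared libraries alone, the 9 libraries without the combination, a fit without the 10 genes of highest level, and fits that each left out 1 library.

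Any called gene could be named. Values per well were given for the 12 largest rises and the 12 largest falls among called genes with a group mean of 1 CPM or more and no overlap, and up to 4 members of each of the 31 gene lists were named by smallest p, with STAT3, STAT5A, STAT5B, SOCS3, BCL3, NR3C1 and FKBP5 always. NFE2L2, KEAP1, SREBF2, HSPA1A, HSPA1B and the values per well of other called genes were added after they were seen. Some genes that these rules select are not reported here, although they stay in the fits and in the counts. The comparison and the lists were chosen with earlier results of these data known. Libraries of a group differed by more than counting noise (chi-square per degree of freedom of at least 4.39). Same-numbered wells did not deviate together (correlations of -0.0469, -0.0141 and 0.00694). These values gave no sign that the numbers pair the wells, though they cannot show that such wells were handled apart. Promoter windows are from RefSeq on GRCh38.p14, a different build from that of the counts.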

Additional observations from a re-analysis of the deposited data

Results flagged for a closer look

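The following genes were among those called with SH4-54 alone, and the interaction test of edgeR (adjusted p below 0.05) found a different effect of SH4-54 in wells with DEX. They were picked on the effect without DEX, which enters the difference. Each value is the log2 effect with DEX minus that without it.

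Genes with a larger rise with DEX were CCL26 (3.38), FOS (2.58), ANXA10 (2.02), HMOX1 (0.67), CYP1B1 (0.52) and SQSTM1 (0.35). Those with a smaller rise, or none, were ANGPTL4 (-0.85), ANGPT1 (-0.77), RGS2 (-0.47) and MT2A (-0.37). The falls of COL8A1 (-0.45), ACAT2 (-0.25) and IL18 (-0.20) were larger with DEX, and those of SOCS2 (0.49), KIF20A (0.38), MATN2 (0.28), IGFBP3 (0.23) and LMO7 (0.19) were smaller or turned into a rise. ANXA10 stood at 5.57, 5.54 and 4.99 CPM without drug, 7.39, 8.3 and 8.37 CPM with SH4-54, 0.58, 0.548 and 0.716 CPM with DEX and 3.65, 4.46 and 3.14 CPM with both. Its level with both compounds thus lay below that of the untreated wells, although its rise over DEX was the larger.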

How the results depend on the processing

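Numbers of calls depended on the fit. The DESeq2 Wald test gave 185 (76 rose, 109 fell), no count filter 176 (82 and 94), the 6 libraries alone 155 (71 and 84) and the 9 libraries without the combination 210 (91 and 119), against 85 (38 and 47). DESeq2 size factors, the stricter filter and removal of the 10 most abundant genes gave 86, 88 and 83. Immediate-early rises were 5 without a filter and 6 with the 9 libraries, and cholesterol falls 10 with DESeq2, 11 without a filter, 11 with the 6 libraries and 13 with the 9. The NF-kB median was 0.173 with the stricter filter and the fatty acid median -0.103 without a filter.

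With the replicate number as a block, which pairs wells by that number alone, 68 genes were called, 64 of them among the 85.

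Leaving out single libraries gave 26 to 57 calls (18 to 28 rises, 8 to 29 falls), with 3 to 6 antioxidant, 2 to 3 immediate-early and 4 to 5 glucocorticoid-induced rises, and 0 to 1 cholesterol falls. Of the 85 genes, 62 to 65 changed the same way in DEX wells and 12 to 34 differed by the interaction. List medians ranged from 0.146 to 0.210 (antioxidant), 0.170 to 0.263 (immediate-early), -0.00117 to 0.0293 (heat shock), -0.00301 to 0.0644 (STAT targets), 0.0938 to 0.158 (NF-kB), -0.201 to -0.162 (cholesterol), -0.103 to -0.0721 (fatty acid), -0.161 to -0.0636 (interferon), -0.101 to -0.0836 (mitosis) and -0.156 to -0.0827 (luminal). Among genes that were not called, the sign turned for STAT5A (-0.0759 without SH4-54 replicate 3, up to 0.104), BCL3 (-0.052 without no-drug replicate 3, -0.0748 without SH4-54 replicate 2, up to 0.179) and FKBP5 (-0.00823 and -0.0208 without those libraries, up to 0.0384). The cause of these shifts was not tested, beyond the smaller number of wells or the other set of genes tested.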

Other observations

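With the 6 compared libraries alone, 78 genes were called that the fit to all 12 libraries did not call, and a few are given by well. ACTA1, a skeletal muscle actin gene, stood at 2.6, 5.01 and 5.59 CPM without drug and at 23.6, 25.2 and 22.6 CPM with SH4-54, while the wells with both compounds ranged from 1.63 to 30 CPM and those with DEX from 0.188 to 5 CPM. FAM166A stood at 0.125, 0.0994 and 0.176 CPM without drug, at 0.894, 0.901 and 0.695 CPM with SH4-54, and at 4.23, 7.72 and 3.05 CPM with both compounds. INSIG1, a sterol-regulated retention factor of the SREBP pathway, went from 117, 123 and 109 to 79.9, 83.8 and 91.3 CPM. For all 3 genes the SH4-54 wells lay on 1 side of the no-drug wells, and their edgeR adjusted p with all 12 libraries was 0.136, 0.0567 and 0.0739. RPL39, a ribosomal protein gene among the 78, ranged from 134 to 271 CPM between no-drug wells, from 79.7 to 88.7 CPM with SH4-54 and from 81.6 to 293 CPM with both compounds.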
